A study of Mus musculus with 14 samples.

Results

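The TAM receptors and their partners in the uptake of apoptotic cells were followed as 7 genes: the receptors Axl, Mertk and Tyro3, the ligands Gas6 and Pros1, the bridging protein Mfge8 and the phosphatidylserine receptor Timd4. They were chosen by symbol from the 43432 genes of the deposited table, with earlier results of these data known. All 7 were among the 17390 genes that reached 10 normalized counts in 2 or more libraries, although Tyro3 met that filter only through the MHCII-low cells taken 4 weeks after bleomycin, so its difference there is partly built into its being tested.

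The cells came from lungs of 129S1 males, 10 to 12 weeks old, that had received water or bleomycin (3 U/k in the labels) through the trachea. Bleomycin is a DNA-damaging drug that injures the lung and leads to fibrosis. All cells were sorted as positive for SiglecF and CD11c, a combination that marks alveolar macrophages, and then by a high or low level of MHC class II (MHCII). There were 3 libraries each of MHCII-low and of MHCII-high cells at 2 weeks and at 4 weeks after bleomycin, and 2 libraries, labelled as replicates 1 and 3, of MHCII-low cells from water-treated control mice. No week is given for these controls. Control cells with high MHCII were not analysed here, so every comparison of high with low cells is within bleomycin-treated lungs. The labels do not say whether the libraries of a group came from separate mice, so p-values measure only the spread between these libraries.

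A dying cell exposes phosphatidylserine, a lipid normally kept on the inner face of its membrane, and phagocytes that read this signal engulf the cell, a process called efferocytosis. The TAM receptor tyrosine kinases read it indirectly, through Gas6 and protein S (Pros1), vitamin K-dependent proteins that hold phosphatidylserine at one end and the receptor at the other. Mfge8 (lactadherin) makes a similar bridge to integrins, whereas Timd4 (TIM-4) binds phosphatidylserine itself and tethers the cell. Mertk and Axl are known from alveolar macrophages, and Timd4 is known as a marker of several long-lived tissue macrophages.

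The libraries held 15106420 to 88059617 recovered reads, and mitochondrial ribosomal RNA took 3.12% to 29.0% of them. At 2 weeks this share was 22.5% to 26.2% in MHCII-high and 3.42% to 18.3% in MHCII-low libraries, with no overlap. At 4 weeks it was 8.12% to 29.0% and 3.12% to 23.1%. Controls had 21.7% and 24.1%, both above every 2-week MHCII-low library. The sort markers were read in every library, with Siglecf, which encodes SiglecF, at 3056 to 9551 and Itgax, which encodes CD11c, at 25185 to 44133 normalized counts. All 11 alveolar macrophage markers listed were detected. In the mean of both times 8 of them were called lower in MHCII-high cells, where 7.21% of all genes were called in either direction, and 6 without replicate 3 of the 4-week MHCII-high cells. That replicate differed from its group in several genes named below, and values that it moves are also given without it. Bulk RNA cannot tell fewer cells of a type from less RNA per cell.

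Among the 7 genes, the stretch in front of the start site is shown for Timd4, Mfge8 and Axl, because Timd4 passed between MHCII-high and MHCII-low cells, Mfge8 differed between times, and Axl was the most abundant of the 7 and the steadiest. The sequences are the 250 bases before the RefSeq transcription start on GRCm38.p6, written 5′ to 3′ on the strand of the gene, at chr11:46810549-46810798 (forward strand) for Timd4, chr7:79149061-79149310 (reverse) for Mfge8 and chr7:25788734-25788983 (reverse) for Axl. Capitals mark every match to a motif searched.
Timd4: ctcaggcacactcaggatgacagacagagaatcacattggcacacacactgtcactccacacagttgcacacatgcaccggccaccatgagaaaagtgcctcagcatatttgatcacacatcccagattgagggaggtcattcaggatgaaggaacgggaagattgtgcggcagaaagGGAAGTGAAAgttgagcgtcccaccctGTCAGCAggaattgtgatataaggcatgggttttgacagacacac
Mfge8: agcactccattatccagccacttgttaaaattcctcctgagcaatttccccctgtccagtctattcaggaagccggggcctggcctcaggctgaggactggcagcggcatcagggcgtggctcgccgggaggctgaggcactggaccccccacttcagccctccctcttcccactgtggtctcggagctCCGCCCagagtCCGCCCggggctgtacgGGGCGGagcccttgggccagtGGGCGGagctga
Axl: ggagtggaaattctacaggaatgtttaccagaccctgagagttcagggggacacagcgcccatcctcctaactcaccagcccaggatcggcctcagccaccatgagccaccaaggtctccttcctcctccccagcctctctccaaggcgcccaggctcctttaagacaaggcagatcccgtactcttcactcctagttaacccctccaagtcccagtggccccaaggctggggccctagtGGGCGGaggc
All 7 genes had a RefSeq promoter window, which reached from 250 bases before to 50 bases after the start. A GC box (GGGCGG, searched on both strands like every motif here) lay in the windows of 6 of the 7 genes, and in 35.7% of all 32851 windows. Timd4 was the member without one, and it held 5 CpG dinucleotides where Axl held 6 and Mfge8 held 17, against a median of 7 over all windows. The Timd4 window held an ETS-IRF composite (GGAA and GAAA with any 2 bases between them, found as GGAAGTGAAA from position -72), present in 2.72% of all windows, and a MAF half-site (TGCTGAC, found on the other strand as GTCAGCA from position -45), present in 4.67%. None of the 7 windows held a TATA box (TATAAA, 13.6% of all windows), an interferon-stimulated response element (GAAA, any 2 bases and GAAA, 3.44%, which can overlap the ETS-IRF composite), an AP-1 site (TGANTCA, 7.81%) or an LXR direct repeat (AGGTCA, any 4 bases and AGGTCA, 0.015%). The motifs were chosen after the sequences had been seen, and a match describes letters, not binding.

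Measured per kilobase of exon, so that genes of different length can be set side by side, the 7 genes fell into an abundant and a scarce group. Axl averaged 13041 normalized counts per kb over the 14 libraries and ranked 61 of the 17390 genes tested. Mertk averaged 6566 per kb (rank 137) and Pros1 3600 per kb (rank 289). Mfge8 at 89.9 per kb (rank 7907), Gas6 at 50.9 (rank 9636) and Timd4 at 34.2 (rank 10722) were scarce in these cells as a whole, and Tyro3 at 0.980 (rank 17044) was at the edge of detection. The abundant receptors were thus read alongside an abundant Pros1 and a scarce Gas6. No pair among the 3 receptors shared an identical stretch longer than 14 bases in its annotated protein-coding transcripts, nor did Gas6 and Pros1 one longer than 12 bases.

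**Figure D1:**
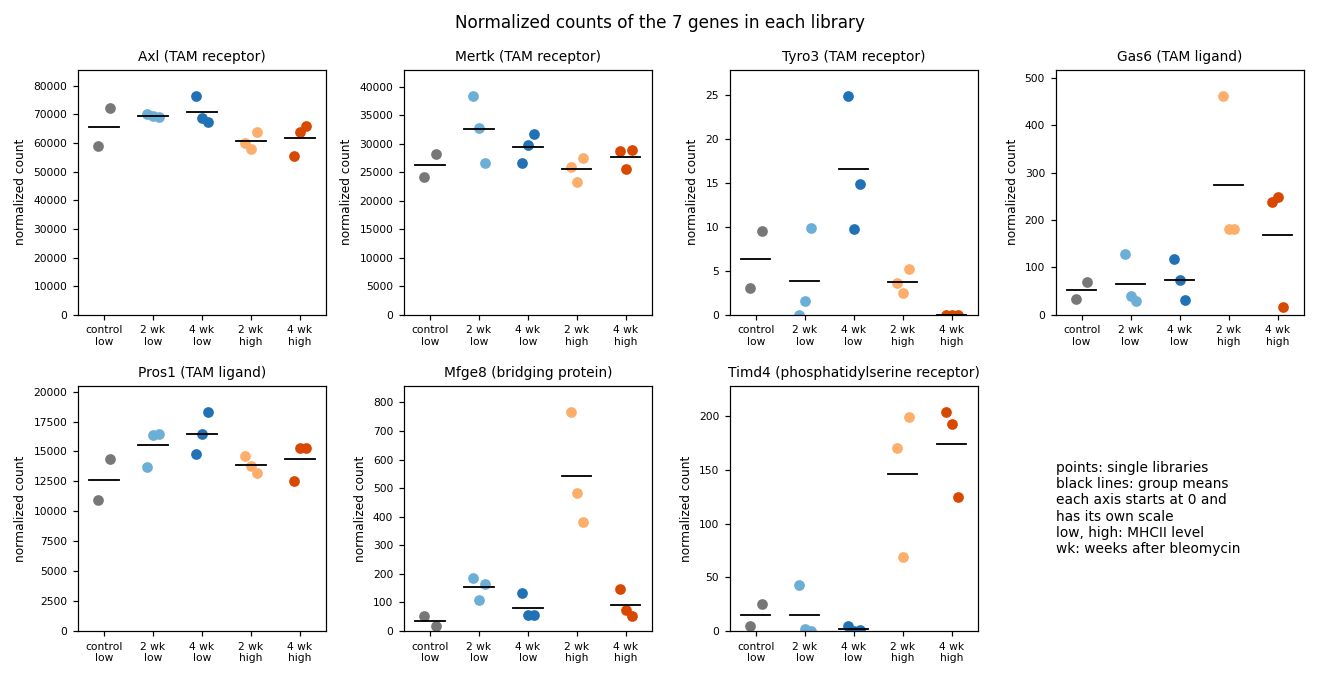
Normalized counts of the 7 genes (y axes, each starting at 0 with its own scale) in each of the 14 libraries, by group on the x axis; points are libraries and black lines group means. Axl, Mertk and Pros1 stay within a narrow band in all groups, Timd4 is 68.8 or above in every MHCII-high library and 42.5 or below in every other, and Mfge8 is highest in 2-week MHCII-high cells.

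Axl (ENSMUSG00000002602, chromosome 7, 25757273 to 25788705, reverse strand), a receptor known to bind Gas6 with particularly high affinity, kept a high level in every group. It was read at 58955 and 72167 normalized counts in the controls, at 69975, 69372 and 69107 in 2-week MHCII-low cells and at 76435, 68900 and 67210 in 4-week MHCII-low cells. MHCII-high cells had 60144, 57835 and 63790 at 2 weeks and 55450, 63772 and 65795 at 4 weeks. At each time all 3 MHCII-high libraries were below all 3 MHCII-low libraries, and the control libraries spanned both. The difference was small and did not pass: the limma log2 fold change of high over low was -0.20 ± 0.15 (standard error) at 2 weeks (adjusted p 0.58) and -0.20 ± 0.15 at 4 weeks (adjusted p 0.57). For the mean of both times it was -0.20, with a 95% interval of -0.42 to 0.02 (adjusted p 0.29). The highest library exceeded the lowest by 1.38-fold. By group mean the order was 4-week low, 2-week low, control, 4-week high and 2-week high, and the ranges of all neighbours in it overlapped.

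Mertk (ENSMUSG00000014361, chromosome 2, 128698956 to 128802894, forward strand), the receptor most closely tied to engulfment by macrophages, varied more between replicates. Its levels were 24233 and 28296 normalized counts in controls, 38414, 32873 and 26576 in 2-week MHCII-low cells, and 26576, 29857 and 31770 in 4-week MHCII-low cells. MHCII-high cells had 26027, 23286 and 27457 at 2 weeks and 28734, 25525 and 28974 at 4 weeks. The groups overlapped at both times. High over low was -0.34 ± 0.16 at 2 weeks (unadjusted p 0.042, adjusted p 0.30 by limma) and -0.08 ± 0.16 at 4 weeks (adjusted p 0.86). For the mean of both times the 95% interval ran from -0.44 to 0.02. Per kilobase, Axl exceeded Mertk by a mean of 1.88-fold to 2.15-fold in the 5 groups, and the ratios of single libraries overlapped between MHCII-high cells (1.66 to 2.15) and MHCII-low cells (1.57 to 2.48).

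Tyro3 (ENSMUSG00000027298, chromosome 2, 119797733 to 119818104, forward strand), the TAM receptor best known from the nervous system, was nearly absent. It had 3.10 and 9.50 normalized counts in controls, 0, 1.60 and 9.90 in 2-week MHCII-low cells, and 24.9, 9.80 and 14.9 in 4-week MHCII-low cells. In MHCII-high cells it had 3.60, 2.50 and 5.20 at 2 weeks and 0 in all 3 libraries at 4 weeks. The 4-week MHCII-low group had the highest mean, from 10 to 29 reads a library. Its lowest library, at 9.80, was just above the higher control, at 9.50, and just below the highest 2-week MHCII-low library, at 9.90. Set against a floor of 3 reads per library, worth 3.65 to 6.24 normalized counts, the 4-week MHCII-high level was at least 3.40-fold lower than the 4-week MHCII-low mean of 16.5. The difference did not pass (limma adjusted p 0.063), and the fitted fold depends on the pseudocount.

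Of the ligands, Pros1 (ENSMUSG00000022912, chromosome 16, 62854307 to 62929346, forward strand) was by far the more abundant. Protein S is best known as an anticoagulant of plasma and also activates Mertk and Tyro3. It was read at 10985 and 14331 normalized counts in controls, at 13738, 16384 and 16451 in 2-week MHCII-low cells and at 14775, 16442 and 18280 in 4-week MHCII-low cells. MHCII-high cells had 14600, 13818 and 13181 at 2 weeks and 12535, 15260 and 15280 at 4 weeks. Groups overlapped at both times, and high over low was -0.16 ± 0.15 (adjusted p 0.69) and -0.20 ± 0.15 (adjusted p 0.58). MHCII-low cells at 4 weeks were above both controls, with a log2 fold change of 0.39 ± 0.17 that did not pass (unadjusted p 0.033, limma adjusted p 0.76).

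Gas6 (ENSMUSG00000031451, chromosome 8, 13465374 to 13494490, reverse strand) was scarce, and its highest values were in MHCII-high cells. Controls had 33.9 and 68.9 normalized counts, 2-week MHCII-low cells 127.5, 39.8 and 28.6, and 4-week MHCII-low cells 118.3, 72.6 and 32.0. MHCII-high cells had 462, 181 and 180.7 at 2 weeks, above every MHCII-low and control library. At 4 weeks 2 MHCII-high libraries, at 237.3 and 249.5, were also above them, and replicate 3, at 15.8 normalized counts from 13 reads, was the lowest of all 14. High over low was 2.21 ± 0.87 at 2 weeks (adjusted p 0.21), 0.60 ± 0.87 at 4 weeks (adjusted p 0.81) and 1.40 ± 0.61 for the mean of both times (adjusted p 0.19). Without 4-week MHCII-high replicate 3 the 4-week difference was 1.88 and did not pass (limma adjusted p 0.19), and the mean difference was 2.05 and passed (limma adjusted p 0.010). DESeq2 on the recovered reads of all 14 libraries gave 1.63 for it (adjusted p 0.029), the 1 call among 15 alternatives. By edgeR it was 1.58 and did not pass (adjusted p 0.089), nor did it with the mitochondrial rRNA covariate in limma (adjusted p 0.31). Of 12 omissions of single libraries 1 gave a call, that of replicate 3, which held the lowest Gas6. In that replicate Cd79a, a B cell gene, was at 6.10 normalized counts where the other 4-week MHCII-high libraries had 378.8 and 208.7, and Lyve1, a marker of interstitial macrophages, at 1.2 where they had 172.7 and 589.9. Lyve1 was also low in 2-week MHCII-high replicate 3, whose Gas6 was 180.7. Whether the Cd79a and Lyve1 differences bear on Gas6 was not tested.

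Per kilobase, Gas6 made up a mean of 0.618% of the summed ligands in controls, 0.699% in 2-week and 0.738% in 4-week MHCII-low cells. In MHCII-high cells it made up 2.96% at 2 weeks (2.02% to 4.75%) and 1.86% at 4 weeks (0.163% to 2.90%). Pros1 therefore stayed the main ligand transcript in every library.

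**Figure D2:**
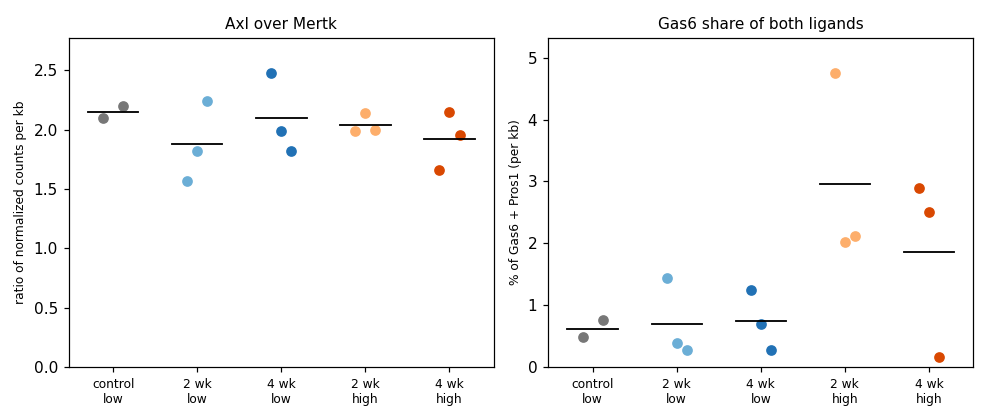
Left, the ratio of Axl to Mertk, and right, the percentage of Gas6 in the sum of Gas6 and Pros1, both from normalized counts per kilobase (y axes from 0), for each library (points) with group means (lines). The Axl to Mertk ratio stays near the same value in all groups, whereas the Gas6 share is 2.02% or above in 5 of 6 MHCII-high libraries and at most 1.44% in all others, with 1 MHCII-high library at 0.163%.

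Mfge8 (ENSMUSG00000030605, chromosome 7, 79133768 to 79149060, reverse strand), which links phosphatidylserine to the integrins alpha-v beta-3 and alpha-v beta-5, peaked in 2-week MHCII-high cells. It had 765.6, 483.3 and 380.5 normalized counts there, against 145.7, 75.3 and 51.1 in 4-week MHCII-high cells. MHCII-low cells had 185.7, 108.3 and 166.3 at 2 weeks and 132.1, 54.9 and 54.4 at 4 weeks, and controls had 53.4 and 18.9. The 2-week MHCII-high libraries lay above all others, and the 2-week MHCII-low libraries lay above both controls. Within MHCII-high cells Mfge8 fell by 2.64 ± 0.56 on the log2 scale from 2 to 4 weeks (limma adjusted p 0.025), and it was the 1 member of the 7 that passed, where 1.07% of all genes did. This call was lost with no filter on low values (adjusted p 0.051), with scaling to library totals (0.067), with only the groups compared in the fit (0.17), and without 2-week MHCII-high replicate 1 (0.12), 2 (0.078) or 3 (0.063) or 4-week MHCII-high replicate 3 (0.052). The log2 change without a library ran from -3.05 to -2.30.

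Whether this fall was particular to MHCII-high cells was tested as an interaction, in which the difference of high from low cells at 2 weeks is subtracted from the one at 4 weeks. For Mfge8 it was -1.62 ± 0.80, with a 95% interval of -3.28 to 0.03 (limma adjusted p 0.88), so a difference between MHCII-high and MHCII-low cells was not shown. High over low itself was 1.79 ± 0.56 at 2 weeks (adjusted p 0.097) and 0.17 ± 0.56 at 4 weeks (adjusted p 0.93), and DESeq2 called the 2-week difference (1.81, adjusted p 0.012). MHCII-low cells at 2 weeks exceeded controls by 2.19 ± 0.63 (adjusted p 0.086), which DESeq2 also called (2.08, adjusted p 0.014). With the mitochondrial rRNA covariate in limma this difference was 1.65 (adjusted p 0.37), and edgeR did not call it (adjusted p 0.11). Without control replicate 1 or 3, which leaves 1 control library, it was 2.92 or 1.47. Fibroblasts and vascular cells also make Mfge8. The summed counts of 6 fibroblast markers were 75.4 to 861 in 2-week and 21.9 to 310.8 in 4-week MHCII-high cells, and those of 5 endothelial markers 3746 to 6574 and 3213 to 4210. For 4 against 2 weeks in MHCII-high cells, where 1.07% of all genes were called, 0 of the 6 and 0 of the 5 passed by limma. At that share few or no calls would be met in lists this short. In each list 1 marker had an unadjusted p under 0.05, and edgeR called none while DESeq2 called 1 of the 6 and 0 of the 5. The part of such cells in the Mfge8 difference was not tested.

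Timd4 (ENSMUSG00000055546, chromosome 11, 46810800 to 46844332, forward strand) was the member called higher in MHCII-high than in MHCII-low cells. It had 170.8, 68.8 and 199.8 normalized counts in 2-week MHCII-high cells (84 to 332 reads) and 204, 193 and 125.4 in 4-week MHCII-high cells (98 to 123 reads). MHCII-low cells had 42.5, 1.6 and 0 at 2 weeks and 4.3, 0 and 1.1 at 4 weeks, at most 19 reads in any library. Controls had 4.3 and 25. Every MHCII-high library was above every MHCII-low and control library. High over low was 4.79 ± 1.19 at 2 weeks (limma adjusted p 0.029), 6.26 ± 1.19 at 4 weeks (adjusted p 0.0037) and 5.53 ± 0.84 for the mean of both times (adjusted p 1.67e-04), a 46.1-fold difference on the log2(value + 1) scale with a 95% interval of 3.78 to 7.27 in log2 units. Since several low values rest on 0 or 1 read, the size depends on the pseudocount: with 5 in place of 1 the mean difference was 4.16 (adjusted p 4.64e-05).

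In each of these 3 comparisons Timd4 was the 1 member of the 7 that passed, where 2.87% of all genes passed at 2 weeks, 2.50% at 4 weeks and 7.21% for the mean of both times. The mean difference passed under all 15 alternatives and without any 1 of the 12 libraries, and was 5.64 without 4-week MHCII-high replicate 3 (adjusted p 0.00032). The 2-week call was lost with no filter (adjusted p 0.10), with only the groups compared (0.15), by edgeR on recovered reads (3.44, 0.16), and without 2-week MHCII-low replicate 2 (0.11) or 3 (0.13) or MHCII-high replicate 1 (0.12), 2 (0.068) or 3 (0.092). Without 2-week MHCII-low replicate 1 it was 6.38 (adjusted p 0.0035). That was the one MHCII-low library after bleomycin with more than 5 reads, and the MHCII-low controls had 11 and 29. The 4-week call was lost with only the groups compared (0.060), and without the 4-week MHCII-high replicate 3 the 4-week difference was 6.48 (0.0096).

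Markers of some other cells moved with Timd4, which dendritic cells and several resident macrophages are known to express. In the mean of both times, used for the calls in this paragraph, 7.21% of all genes were called in either direction. The summed counts of 8 dendritic cell markers were 969.6 to 2176 in MHCII-high libraries and 90.6 to 310 in MHCII-low and control libraries. In that mean 6 of the 8 passed as higher (5 without 4-week MHCII-high replicate 3). Cd209a, 1 of the 8, was at 0 in every MHCII-low library after bleomycin, so it met the filter on low values only through MHCII-high or control libraries. Flt3, a receptor of dendritic cells, was at 91.7 to 280.8 in MHCII-high libraries and at most 17.9 elsewhere, and Zbtb46, a factor of classical dendritic cells, at 82.8 to 302.8 and 19.6 to 176.5. The 10 B and T lymphocyte markers summed to 315.3 to 1096 in MHCII-high and 45.8 to 310.4 in other libraries, and 5 of the 10 passed as higher. Of the 10, Cd79b and Pax5 were at 0 in every 4-week MHCII-low library. Of 12 monocyte-derived or interstitial macrophage markers, which include Cx3cr1 and the C1q genes named below, 8 passed as higher and 0 as lower. Their summed counts were 110711 to 129828 in MHCII-high and 101436 to 155094 in MHCII-low and control libraries. By limma 0 of 5 neutrophil, 0 of 3 eosinophil, 0 of 6 fibroblast, 0 of 5 endothelial and 0 of 4 platelet markers tested passed. DESeq2 called 1 of the endothelial markers. Of 8 alveolar and airway epithelial markers 2 passed as higher and 1 as lower by limma. Timd4 itself is 1 of 4 markers of peritoneal-type resident macrophages. The other 3 (Gata6, Lyve1 and Folr2) summed to 97.3 to 600.9 in MHCII-high and 30.1 to 181.2 in other libraries, and none of these 3 passed in the mean: Folr2 was at 2.18 ± 1.02 (unadjusted p 0.045, adjusted p 0.22), Lyve1 at 0.22 ± 1.17 and Gata6 at -1.23 ± 1.00. Gata6 was at 0 in 2 of the 4-week MHCII-high libraries, whose Timd4 was 193 and 125.4. Lyve1 was at 1.70 and 1.2 in the third replicates at 2 and 4 weeks, where Timd4 was 199.8 and 125.4. The part of these cells in the Timd4 difference was not tested.

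**Figure D3:**
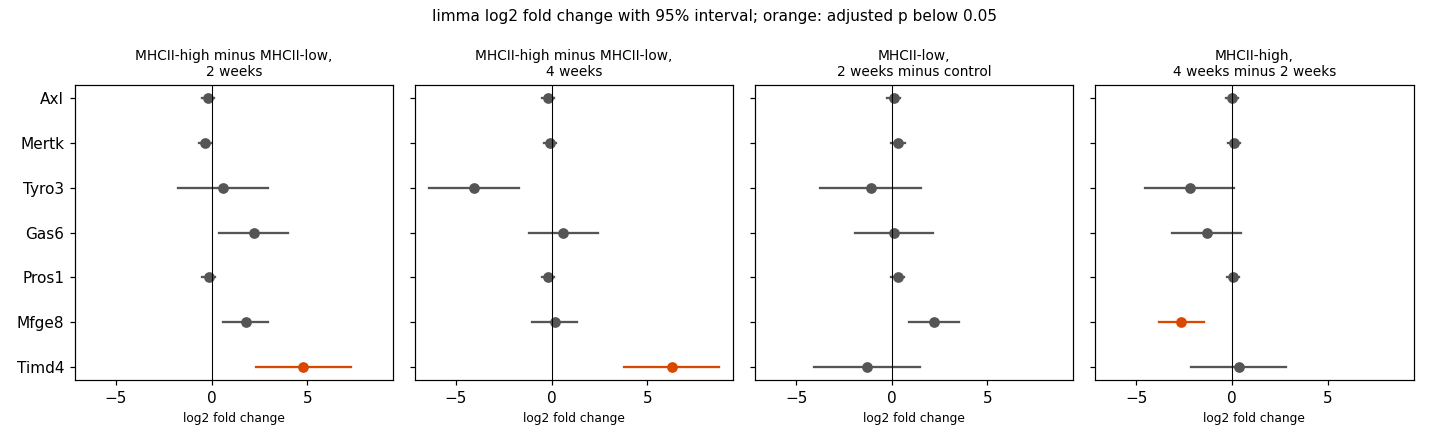
Limma log2 fold changes (x axis) of the 7 genes with 95% intervals in 4 comparisons; orange marks an adjusted p below 0.05. Timd4 is higher in MHCII-high than in MHCII-low cells at both times (4.79 and 6.26), Mfge8 is lower at 4 than at 2 weeks in MHCII-high cells (-2.64), and the intervals of Axl, Mertk and Pros1 stay close to 0.

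Within MHCII-low cells, bleomycin-treated lungs were compared with controls at each time, and the times with each other. The same control libraries served for 2 and 4 weeks, and no week is given for them. Time after treatment therefore cannot be told apart from bleomycin in the differences from control. By limma 0 of the 7 members passed at 2 weeks against control, where 1.91% of all genes did, and 1 had an unadjusted p under 0.05 (Mfge8). edgeR called 0 of the 7 and DESeq2 called 1, Mfge8. At 4 weeks against control 0 of the 7 passed, where 0.0460% of all genes did, with 1 at an unadjusted p under 0.05 (Pros1) and 0 called by edgeR or DESeq2. From 2 to 4 weeks in MHCII-low cells 0 of the 7 passed, where 0.857% of all genes did, with 1 at an unadjusted p under 0.05 (Tyro3) and 0 by either other tool. These comparisons share the control or the 2-week libraries. The receptors' intervals bound the changes that these libraries allow: for Axl the 2-week difference from control lay between -0.25 and 0.44 on the log2 scale, and for Mertk between -0.06 and 0.66. Timd4 did not pass at 2 weeks (-1.28 ± 1.33) or at 4 weeks (-2.39 ± 1.33) against controls, and these values rest on at most 29 reads.

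For the interaction 0 of the 7 members passed by limma, as did 0% of all genes. An unadjusted p under 0.05 was found for 987 genes, Tyro3 among them as the 1 member, and edgeR called 0 genes and DESeq2 56, none of them a member. The Timd4 interaction was 1.47 ± 1.68 (95% interval -2.03 to 4.96), so its larger difference at 4 weeks was not shown to differ from that at 2 weeks.

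The 7 genes were then set beside 64 other genes of apoptotic cell uptake in 8 lists by role, chosen with earlier results of these data known. A count above the share of all genes is therefore no test of these lists. Of the 64 genes, 61 were tested. In MHCII-high over MHCII-low cells 5 were called higher and 0 lower at 2 weeks, 7 and 0 at 4 weeks, and 10 and 3 for the mean of both times, against 2.87%, 2.50% and 7.21% of all genes in either direction. Without 4-week MHCII-high replicate 3 the 4-week difference gave 6 higher and 0 lower, and the mean of both times 9 higher and 3 lower. In 2-week MHCII-low cells over control 7 were called higher and 1 lower (1.91% of all genes). At 4 weeks over control 0 of the 61 passed by limma (0.0460% of all genes), with 12 at an unadjusted p under 0.05 and 0 called by edgeR or DESeq2. From 2 to 4 weeks 0 were higher and 4 lower in MHCII-low cells (0.857% of all genes), and 1 was higher and 1 lower in MHCII-high cells (1.07%). Among 11 other bridging proteins and integrins, 5 were called higher and 2 lower in the mean, with a median log2 fold change of 0.72 where the median of all genes was 0.02. The complement subunits C1qa, C1qb and C1qc, which coat apoptotic cells, were higher by 5.68, 5.08 and 5.49 (limma adjusted p 8.14e-07, 6.15e-07 and 4.40e-09). C1qa reached 1847 to 3619 normalized counts in MHCII-high cells at 2 weeks and 601 to 955 at 4 weeks, and no other library exceeded 247.8.

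The integrin partners of Mfge8 were of 3 kinds. Itgb3 (beta-3) had 264, 366.2 and 117.3 normalized counts in 2-week and 141.5, 241.6 and 68.2 in 4-week MHCII-high cells, against 60.4, 49.4 and 41.3 and then 0, 7.80 and 2.10 in MHCII-low cells. It passed as higher at 4 weeks (5.47 ± 0.88, adjusted p 7.63e-04) and in the mean (3.81 ± 0.63, adjusted p 3.74e-04), but not at 2 weeks (2.15 ± 0.88, adjusted p 0.23). Itgav, the shared alpha-v chain, was higher in the mean by 0.48 ± 0.14 (adjusted p 0.041), a call lost without 4-week MHCII-high replicate 3 (adjusted p 0.071). Itgb5 (beta-5) did not pass between high and low cells (0.10 ± 0.13, adjusted p 0.74) and varied with time instead: it was higher in 2-week MHCII-low cells than in controls (1.15 ± 0.21, adjusted p 0.0028) and lower at 4 than at 2 weeks in MHCII-low (-0.88 ± 0.19, adjusted p 0.018) and in MHCII-high cells (-0.85 ± 0.19, adjusted p 0.028). Itgb5 averaged 3524 ± 258 (SD, n = 3) in 2-week and 1975 ± 342 in 4-week MHCII-high cells, a fall at the same time as that of Mfge8. Anxa5, the phosphatidylserine-binding annexin, and Lgals3, galectin-3, were lower in MHCII-high cells in the mean (-0.44 ± 0.11 and -0.50 ± 0.14, adjusted p 0.011 and 0.034).

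Of 14 other receptors for apoptotic cells, 12 were tested. In the mean 2 were called higher and 0 lower (median 0.18), where 7.21% of all genes were called in either direction. Stab1, which encodes stabilin-1, a scavenger receptor that binds phosphatidylserine, was higher by 4.34 ± 0.55 (adjusted p 1.91e-05), with 255.6 to 697.7 normalized counts in MHCII-high and 2.10 to 59.5 in other libraries. Havcr1, which encodes TIM-1, a relative of Timd4, was called in the mean (3.67 ± 0.89, adjusted p 0.013) at low levels, from 0 to 67.4 in MHCII-high libraries and at most 1.2 elsewhere, so its fitted difference depends on the pseudocount. It met the filter on low values only through MHCII-high libraries, so this call is partly built into its being tested. Adgrb1, which encodes the phosphatidylserine receptor BAI1, was at 0 in all 14 libraries and is named after its values were seen. Against controls, 2-week MHCII-low cells had higher Scarb1 and Cd14 (1.15 and 0.92, adjusted p 0.0075 and 0.0071) and lower Cd36 (-1.33, adjusted p 0.0062), a scavenger receptor that works with thrombospondin.

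For steps inside the phagocyte, in the mean of both times, where 7.21% of all genes were called, 0 of 10 engulfment signalling genes (median 0.07) and 0 of 8 genes of LC3-associated phagocytosis (median -0.12) passed by limma, with 3 and 1 at an unadjusted p under 0.05 and 0 called by edgeR or DESeq2. Of 5 nuclear receptors that respond to ingested lipid, Pparg was called lower (-0.37 ± 0.10, adjusted p 0.027). Of the 3 genes tested among regulators of cytokine signalling that act with TAM receptors, Socs3 (0.77 ± 0.22, adjusted p 0.035) and Ifnar1 (0.42 ± 0.11, adjusted p 0.021) were called higher. Of these 3 genes DESeq2 called 2 and edgeR 0, and the Socs3 call was lost without 4-week MHCII-high replicate 3 (adjusted p 0.075). Socs3, an inhibitor of cytokine receptor signalling that TAM receptors can induce, was also higher in 2-week MHCII-low cells than in controls (2.44 ± 0.35, adjusted p 2.27e-04) and lower at 4 than at 2 weeks in MHCII-low cells (-1.94 ± 0.31, adjusted p 0.0014). Among signals that attract phagocytes or hold them off, Cx3cr1, the receptor of fractalkine, was higher in MHCII-high cells (4.86 ± 0.33, adjusted p 2.42e-09).

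Of the 5 genes that act directly on TAM proteins, 0 passed by limma for high over low cells at either time or in the mean, where 2.87%, 2.50% and 7.21% of all genes did, so that fewer than 1 call would be met at those shares. In the mean 2 had an unadjusted p under 0.05, and edgeR and DESeq2 called 1 each. Adam10 and Adam17 shed the outer part of Axl and Mertk. Adam17 was lower at 4 than at 2 weeks in MHCII-low cells (-0.66 ± 0.16, adjusted p 0.044), from 16578 ± 1839 to 10572 ± 2067 normalized counts (SD, n = 3 each). DESeq2 called 1 of the 5 genes in that comparison and edgeR 0, and Adam10 did not pass there (-0.34 ± 0.20, adjusted p 0.82). Ggcx carboxylates Gas6 and protein S, and Vkorc1 recycles the vitamin K it uses. High over low in the mean was 0.37 ± 0.25 for Ggcx (adjusted p 0.42) and -0.81 ± 0.26 for Vkorc1 (unadjusted p 0.0056, adjusted p 0.065).

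**Figure D4:**
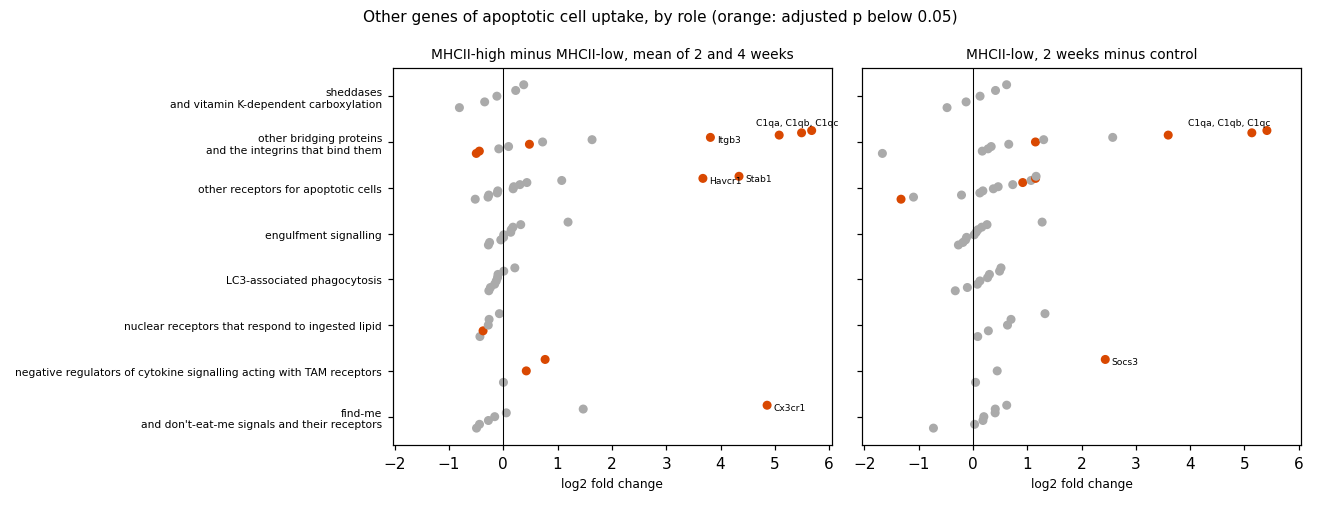
Limma log2 fold changes (x axis) of the 61 other genes of apoptotic cell uptake that were tested, by role (y axis), for MHCII-high over MHCII-low cells (left, mean of both times) and for 2-week MHCII-low cells over control (right); orange marks an adjusted p below 0.05. The calls of large size on the left are C1qa, C1qb, C1qc, Itgb3, Stab1, Cx3cr1 and Havcr1, of which Havcr1 met the filter only through MHCII-high libraries, and the engulfment and LC3-associated phagocytosis lists hold none.

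Genes with the most similar pattern were sought among 9994 genes that averaged at least 100 normalized counts, by the root-mean-square difference of centred log2 values over the 14 libraries. Closest to Timd4 were St8sia6 (1.25), Plbd1 (1.45) and Tlr9 (1.53), where Timd4 itself varied by 3.02 (SD, log2). Closest to Mfge8 were Myo10 (0.68), Gpx3 (0.70) and Scd1 (0.70), and to Gas6 Vegfa (0.72), Bach2 (0.78) and Heg1 (0.78). For the steady genes the distances were small, 0.08 from Axl to Cs, 0.10 from Mertk to Serinc3 and 0.08 from Pros1 to Snx27. Tyro3 had no close match, its nearest being Armc6 (1.05). These distances describe likeness over libraries and carry no test.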

How the data were processed

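RNA-seq was analysed in 14 libraries. The labels name 2 sorter models without assigning them. Per the labels' protocols, mRNA was captured on beads, amplified as whole-transcriptome cDNA and tagmented. The deposited signal columns hold 1 normalized value per gene and library, per the file headers, and are called normalized counts because their steps gave whole reads. The submitters' processing notes name STAR, DESeq2 and mm10, with no role given. How the values were scaled is not given in the sources used here. Low values in each column were whole multiples of the worth of 1 read (0.39 to 2.24 normalized counts). Of the low nonzero values, the only ones checked, 99.5% to 100% came out whole within 0.05. Higher values were divided by the same worth and rounded. The reads thus recovered gave the depths, and no molecular identifiers are described. The deposited GC percent and exon length of the authors were used as given, the exon length for values per kb. A deposited column of means was not used. Coordinates are on GRCm38, where all 7 genes had the span of the GENCODE annotation.

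The main test was limma 3.58.1 (R 4.3.3) with a mean-variance trend on log2(normalized count + 1), all 14 libraries in 1 fit, 1 coefficient per group, and Benjamini-Hochberg adjustment over 17390 genes in each of 8 comparisons, with a threshold of 0.05. Adjusted p-values without a named tool come from limma, and ± gives the standard error of log2 fold changes. With 1 added before the logarithm, the fold change of a low gene depends on that pseudocount. The test was tried on simulated data. edgeR 4.0.16 and DESeq2 1.42.0 were run on recovered reads as alternatives, beside other pseudocounts, filters, scalings, a GC correction, a mitochondrial rRNA covariate, a replicate block and the omission of each library. Counts of listed genes without 4-week MHCII-high replicate 3 were added after seeing the data. Named were all 7 members, in the other lists up to 3 genes with the smallest p and direct partners of members, and the 3 genes of most similar pattern per member. The members and lists were chosen with earlier results of these data known.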

Additional observations from a re-analysis of the deposited data

How the results depend on the processing

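The 56 values of the 7 genes in 8 comparisons were recomputed 1210 times, under 15 alternatives and without each of the 14 libraries. Of these, 1144 kept their direction and side of the threshold, 16 lost a call, 7 gained one, 43 changed sign without a call in either fit, and 0 called values changed sign. The number of members past the threshold at 2 weeks, 1 in high over low, became 0 with no filter, with only the groups compared and by edgeR, became 2 with the replicate block and by DESeq2, and was 0 to 1 without single libraries. At 4 weeks it became 0 with only the groups compared. For the mean of both times it became 2 by DESeq2 and was 1 to 2 without single libraries. For 2-week MHCII-low cells over control it was 0 and became 1 with the GC trend removed, with the replicate block and by DESeq2, each time Mfge8. For 4 against 2 weeks in MHCII-high cells it was 1 and became 0 with no filter, with library totals and with only the groups compared, and was 0 to 1 without single libraries. The labels state no pairing of libraries by replicate number. Deviations from the group means correlated at 0.009 to 0.107 for same-numbered libraries of different groups (6 pairs) and at -0.124 to 0.077 for the others (12 pairs). With so few libraries in a group, these values cannot decide whether equal numbers were paired. The replicate block changed the calls of Mfge8 named above (adjusted p 0.047 for high over low at 2 weeks and 0.025 for 2-week MHCII-low over control) and no other member's.

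The number of genes called among all tested also moved by over 1.5 times under some settings. High over low gave 499 genes at 2 weeks by limma, 1055 by DESeq2, 207 with the mitochondrial rRNA covariate, 316 with no filter, 311 with only the groups compared and 205 to 457 without single libraries. At 4 weeks it gave 434, 898 by DESeq2, 282 with no filter, 56 with only the groups compared and 266 to 483 without single libraries, and for the mean of both times 1254, 2122 by DESeq2 and 500 with the covariate. In MHCII-low cells at 2 weeks over control it was 332, 660 by DESeq2, 213 with the covariate, 36 with only the groups compared and 127 to 307 without single libraries. At 4 weeks over control it was 8, 77 by DESeq2, 65 with no filter, 16 with the replicate block, 2 by edgeR and with the covariate, 0 with only the groups compared and 1 to 8 without single libraries. From 2 to 4 weeks in MHCII-low cells it was 149, 322 by DESeq2, 93 with library totals and 15 with only the groups compared, with 95 to 138 without single libraries. In MHCII-high cells it was 186, 632 by DESeq2, 112 by edgeR, 103 with no filter, 99 with library totals, 0 with only the groups compared and 64 to 298 without single libraries. The interaction went from 0 to 2 without 4-week MHCII-high replicate 3. Scaling to library totals moved the median log2 fold change of all genes for high over low from -0.03 to -0.17 at 4 weeks and from 0.02 to -0.13 for the mean of both times. It moved the share of called genes that were higher from 79.8% to 68.9% at 2 weeks and from 69.4% to 46.5% in the mean. The causes of these shifts were not tested.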

Other observations

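The values of 2 listed genes that were counted but not named above are given here. Cx3cl1, which encodes fractalkine, a signal that draws phagocytes to dying cells, rose in MHCII-high cells from 332.6 to 359.1 normalized counts at 2 weeks to 773.5 to 1086 at 4 weeks (limma log2 fold change 1.47 ± 0.29, adjusted p 0.016). It had 663.5 to 707 in 2-week and 675.5 to 1805 in 4-week MHCII-low cells, and 1068 and 1187 in controls. Thbs1, which encodes thrombospondin-1, a bridge from dying cells to Cd36 and integrins, had 429.3 to 651.6 normalized counts at 2 weeks in MHCII-high cells, where MHCII-low cells had 116.3 to 179.9. It had 3.10 to 222.7 in 4-week MHCII-high cells, 46.9 to 55.7 in 4-week MHCII-low cells and 13.8 and 45.6 in controls. Thbs1 was highest in the same group as Mfge8, and its difference between the times in MHCII-high cells did not pass (-3.77 ± 0.93, adjusted p 0.051), although it did without 4-week MHCII-high replicate 3 (-4.17, adjusted p 0.043). Both genes were chosen for this paragraph after their values were seen.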
